A study of Homo sapiens with 6 samples.

Results

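Complex I, the NADH:ubiquinone oxidoreductase of the inner mitochondrial membrane, was followed through 50 nuclear genes, 36 for structural subunits and 14 for assembly factors, among 60604 genes counted. The genes were taken by symbol from a list of subunit and assembly factor names, and all 50 had a row in each count table. Total RNA was sequenced from AGS, an established line of human gastric adenocarcinoma cells. The 500IND group held 3 libraries of cells given 0.5 mM indomethacin for 24 h, a non-steroidal anti-inflammatory drug that inhibits cyclooxygenases, and the Control group held 3 libraries of the same line at 0 mM, for which the labels give no time. The series was set up around sirtuin 3, a mitochondrial deacetylase, as a proposed target of such drugs in gastric cells. Separate cultures are not stated for the libraries of a group, and p-values therefore cover the differences among these libraries, which may be only technical.

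Complex I takes electrons from NADH, passes them along a chain of iron-sulfur clusters to coenzyme Q and pumps protons across the inner membrane. Its peripheral arm in the matrix consists of the N module, which binds NADH, and the Q module, which reduces coenzyme Q, and its membrane arm has a proximal and a distal part that do the pumping. The core subunits carry out catalysis and are conserved from bacteria, the accessory subunits surround and stabilise them, and assembly factors build the complex without staying in it. Mitochondrial DNA encodes the core of the membrane arm and nuclear DNA encodes the rest.

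Total counts were 20094302, 19323461 and 17535435 in the 500IND libraries and 20983189, 23221077 and 21919853 in the Control libraries, so a gene with 3 counts lay at 0.129 to 0.171 CPM, counts per 1e6 counts of the library. Levels are given as CPM scaled by trimmed mean of M values (TMM), with SD over n = 3 libraries. All 5 epithelial markers were detected in every library. EPCAM averaged 178 ± 10.2 CPM in 500IND libraries and 285 ± 7.72 CPM in Control libraries, and KRT8 1144 ± 57.4 and 1670 ± 154 CPM. CLDN7 was higher in 500IND libraries, at 153 ± 10.5 CPM, than in Control libraries, at 73.9 ± 5.61 CPM. KRT18 averaged 850 ± 53.1 CPM in 500IND libraries and 720 ± 67.9 CPM in Control libraries, and KRT19 589 ± 63.9 and 637 ± 59.6 CPM. Of the gastrointestinal markers CDX1 had 0 counts in all 6 libraries, CLDN18 had 2, 1 and 2 counts in the 500IND libraries and 18, 23 and 16 counts in the Control libraries, VIL1 averaged 25.2 ± 7.86 CPM in 500IND libraries and 207 ± 24.3 CPM in Control libraries, and TFF1 averaged 25.2 ± 8.45 CPM in 500IND libraries and 0.774 ± 0.644 CPM in Control libraries. GATA6, also a gastrointestinal marker, averaged 14.7 ± 0.495 CPM in 500IND libraries and 23.0 ± 1.95 CPM in Control libraries. Of 8 markers of leukocytes, endothelium and fibroblasts, 7 averaged 0.257 CPM or less in both groups, and COL1A1 averaged 10.0 ± 0.948 CPM in 500IND libraries and 4.92 ± 1.31 CPM in Control libraries. In bulk RNA fewer cells of a type and less RNA per cell cannot be told apart, and the part of these marker differences in the results was not tested.

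Most complex I genes had lower mRNA levels after indomethacin. Of 49 genes that passed the filter on low counts, 38 fell and 4 rose at an adjusted p under 0.05 (edgeR quasi-likelihood test, Benjamini-Hochberg adjustment over all genes), and 7 did not pass. Over all 17200 genes tested, 31% fell and 30.6% rose. The median log2 fold change, 500IND over Control, was -0.76 for the complex I genes, a 1.69-fold lower level, against 0.04 for all genes tested. The interquartile range of the complex I genes was -1.07 to -0.46. In the same 38 genes every 500IND library was below every Control library, which held for 33.3% of all genes tested. In the 4 genes that rose every 500IND library was above every Control library, and the share of all genes tested with this upward separation was not counted. There were 18 complex I genes that fell with a log2 fold change below -1, against 15.6% of all genes tested. The CPM of all 50 genes added up to 970, 1018 and 1112 in the 500IND libraries, against 1804, 1700 and 1842 in the Control libraries.

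**Figure D1:**
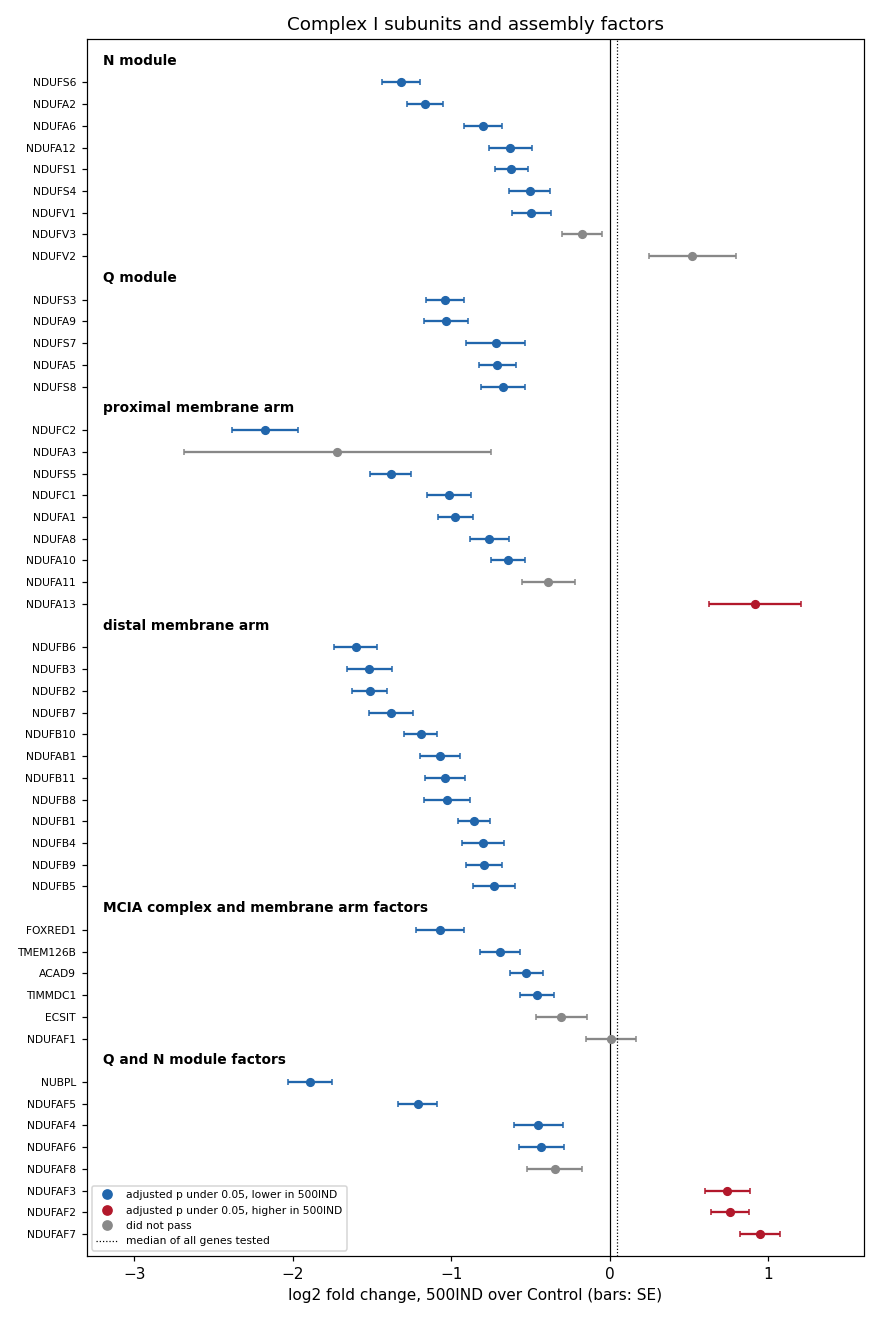
Log2 fold change (500IND over Control, x axis, bars SE) of each of the 49 complex I genes tested, grouped by module on the y axis and coloured by the test. All 12 genes of the distal membrane arm lie left of 0, between -1.60 and -0.73, and the 4 genes in red on the right are NDUFA13, NDUFAF2, NDUFAF3 and NDUFAF7.

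The subunits had a lower median than the assembly factors. Of 35 subunits tested 30 fell, 1 rose and 4 did not pass, with a median log2 fold change of -0.86, while of 14 assembly factors 8 fell, 3 rose and 3 did not pass, with a median of -0.44. Among subunits, 25 of 29 accessory subunits tested fell with a median of -1.01, and 5 of the 6 core subunits fell with a median of -0.65. The difference between these classes was described, not tested.

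The N module oxidises NADH through flavin mononucleotide and feeds its electrons into the iron-sulfur clusters. Of its 9 tested genes 7 fell and 2 did not pass, with a median log2 fold change of -0.62. NDUFS6, a zinc-binding accessory subunit and the lowest of the module, had 15.2, 14.4 and 13.5 CPM in the 500IND libraries, against 36.0, 32.9 and 38.9 CPM in the Control libraries. All 500IND libraries were below all Control libraries, and the gene fell (log2 fold change -1.32 ± 0.12 SE, adjusted p by edgeR 4.79e-07). The accessory subunit NDUFA2 fell by a similar amount (log2 fold change -1.17, edgeR adjusted p 8.34e-07).

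Smaller decreases were seen in 5 other N module genes. NDUFA6, which holds an acyl carrier protein, changed by -0.80 on the log2 scale, and NDUFA12, which sits where the N and Q modules meet, changed by -0.63. NDUFS1, the largest core subunit and a carrier of iron-sulfur clusters, averaged 96.0 ± 7.43 CPM in 500IND libraries and 148 ± 7.31 CPM in Control libraries. NDUFV1, the core subunit that binds NADH and the flavin, averaged 61.1 ± 8.59 CPM in 500IND libraries and 86.0 ± 7.67 CPM in Control libraries. These core subunits fell with log2 fold changes of -0.62 and -0.50, and NDUFS4, an accessory subunit whose loss in humans causes Leigh syndrome, changed by -0.50. All 5 passed the test, with edgeR adjusted p between 5.94e-05 and 0.00370.

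The other N module genes did not pass the test or the filter. NDUFV3, an accessory subunit, had 22.0, 19.1 and 20.8 CPM in the 500IND libraries, against 21.3, 22.5 and 26.1 CPM in the Control libraries. The lowest Control library lay within the 500IND range, so the groups overlapped (log2 fold change -0.18 ± 0.13 SE, adjusted p by edgeR 0.240). NDUFV2, a core subunit with an iron-sulfur cluster, had 5.31, 5.01 and 7.01 CPM in the 500IND libraries, against 5.63, 4.04 and 2.39 CPM in the Control libraries. The Control libraries differed 2.36-fold among themselves and overlapped the 500IND libraries (log2 fold change 0.52 ± 0.27 SE, adjusted p by edgeR 0.114). Without Control replicate 1 it passed as higher, at a log2 fold change of 0.78 and an edgeR adjusted p of 0.024. NDUFA7, an accessory subunit, had 5, 5 and 2 counts in the 500IND libraries, against 8, 11 and 7 in the Control libraries, and was not tested.

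The Q module carries the last iron-sulfur cluster before coenzyme Q. All 5 of its genes fell, and their log2 fold changes had the smallest SD of any module, 0.19, and lay between -1.04 and -0.67 with a median of -0.72. NDUFS3, a core subunit at the start of assembly, had 17.1, 17.9 and 18.6 CPM in the 500IND libraries, against 35.1, 34.1 and 41.1 CPM in the Control libraries. The Control libraries were all above the 500IND libraries (log2 fold change -1.04 ± 0.12 SE, adjusted p by edgeR 4.32e-06). NDUFS8, a core subunit that binds iron-sulfur clusters, had 23.9, 32.7 and 32.9 CPM in the 500IND libraries, against 42.8, 46.2 and 53.3 CPM in the Control libraries. Here too the groups did not overlap, with 500IND replicate 1 the lowest library (log2 fold change -0.67 ± 0.14 SE, adjusted p by edgeR 8.00e-04). NDUFA9, an accessory subunit near the coenzyme Q site, changed by -1.03, NDUFS7, the core subunit that holds the terminal cluster, by -0.72, and the accessory subunit NDUFA5 by -0.71, all past the test.

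The proximal membrane arm held both the strongest decrease and the only subunit that rose. Of its 9 genes 6 fell, 1 rose and 2 did not pass, and the median log2 fold change was -0.97. NDUFC2, an accessory subunit whose gene lies at chr11:78068297-78079862 on the minus strand (hg38), had 10.6, 6.20 and 6.29 CPM in the 500IND libraries, against 42.2, 34.8 and 28.2 CPM in the Control libraries. The groups were far apart, with 500IND replicate 1 the highest of its group, and the gene fell (log2 fold change -2.18 ± 0.21 SE, adjusted p by edgeR 7.02e-07).

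NDUFA13, an accessory subunit also known as GRIM-19, ran the other way. Its level was low in every library, with 2.04, 3.57 and 3.06 CPM in the 500IND libraries, against 1.32, 1.62 and 1.64 CPM in the Control libraries, which were 43, 72 and 51 counts in 500IND libraries and 27, 38 and 35 counts in Control libraries. The groups did not overlap, and the gene rose (log2 fold change 0.91 ± 0.29 SE, adjusted p by edgeR 0.0143). Without Control replicate 1 the adjusted p was 0.060, without 500IND replicate 2 it was 0.083, and in neither case did the gene pass.

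The other proximal subunits fell, except NDUFA11 and NDUFA3. NDUFS5, an accessory subunit of the intermembrane space, averaged 39.6 ± 6.71 CPM in 500IND libraries and 103 ± 9.20 CPM in Control libraries and fell (log2 fold change -1.38 ± 0.13 SE, adjusted p by edgeR 6.24e-07). NDUFC1, NDUFA1 and NDUFA8, all small accessory subunits, had log2 fold changes of -1.01, -0.97 and -0.76, and NDUFA10, the largest accessory subunit of this arm, had -0.64. All 4 passed with edgeR adjusted p between 3.73e-06 and 0.000124. NDUFA11, an accessory subunit beside the junction with complex III in supercomplexes, had 8.63, 13.5 and 10.6 CPM in the 500IND libraries, against 13.9, 13.3 and 15.6 CPM in the Control libraries. The second 500IND library lay within the Control range, and the gene did not pass (log2 fold change -0.39 ± 0.17 SE, adjusted p by edgeR 0.0600), though without 500IND replicate 2 the edgeR adjusted p was 0.012.

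NDUFA3, a small accessory subunit with its gene at chr19:54102728-54109257 on the plus strand (hg38), differed more among libraries of 1 group than between the groups. It had 4, 172 and 5 counts in the 500IND libraries, against 489, 124 and 26 counts in the Control libraries, or 0.190, 8.53 and 0.30 CPM in the 500IND libraries, against 23.9, 5.28 and 1.22 CPM in the Control libraries. The highest library was 45.0 times the lowest within 500IND and 19.7 times within Control. In the other 48 tested genes this ratio had a median of 1.21 in 500IND and 1.157 in Control and reached at most 1.75 and 2.36. NDUFA3 did not pass (log2 fold change -1.72 ± 0.97 SE, adjusted p by edgeR 0.139). Without 500IND replicate 2 the log2 fold change was -5.37 with an edgeR adjusted p of 0.0038, and without Control replicate 3 it was -2.27 with an adjusted p of 0.046.

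Genes around NDUFA3 on chromosome 19 were looked up for the same spread. TFPT, whose exons overlap NDUFA3 on the opposite strand, had 18, 19 and 6 counts in the 500IND libraries, against 21, 1 and 38 in the Control libraries. PRPF31, a splicing factor gene beyond it, had 358, 444 and 328 counts in the 500IND libraries, against 843, 1082 and 1201 in the Control libraries. OSCAR, which codes for a receptor of osteoclasts and starts 36 bases from NDUFA3 on the other strand, had 52, 85 and 82 counts in the 500IND libraries, against 1, 2 and 2 in the Control libraries. PRPF31 and OSCAR separated the groups without overlap, whereas TFPT, like NDUFA3, varied within them. The cause of the spread in NDUFA3 was not tested.

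The distal membrane arm, the far end of the proton pump, was the most uniform large module. All 12 of its nuclear subunits fell, with a median log2 fold change of -1.06 and a range of -1.60 to -0.73. NDUFB6, an accessory subunit, had 9.01, 7.24 and 9.35 CPM in the 500IND libraries, against 26.7, 26.3 and 24.7 CPM in the Control libraries. Each 500IND library was under 10 CPM and each Control library over 24 CPM (log2 fold change -1.60 ± 0.14 SE, adjusted p by edgeR 2.62e-07). NDUFB5, the accessory subunit with the smallest decrease of the module, had 10.8, 9.77 and 11.7 CPM in the 500IND libraries, against 17.3, 18.3 and 17.9 CPM in the Control libraries, and its groups did not overlap (log2 fold change -0.73 ± 0.13 SE, adjusted p by edgeR 2.73e-04).

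Ordered by size, the distal decreases ran from NDUFB6 through NDUFB3, NDUFB2, NDUFB7 and NDUFB10, all accessory subunits, at -1.52, -1.52, -1.38 and -1.19 for the last 4. NDUFAB1, the mitochondrial acyl carrier protein that also serves fatty acid synthesis, averaged 24.0 ± 3.80 CPM in 500IND libraries and 50.4 ± 2.82 CPM in Control libraries (log2 fold change -1.07). NDUFB11 and NDUFB8 followed at -1.04 and -1.03, then NDUFB1, NDUFB4 and NDUFB9, small accessory subunits, at -0.86, -0.80 and -0.80. With an SE of 0.10 to 0.15 each, neighbours in this order differed by less than the sum of their SEs.

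Assembly factors of the membrane arm include the MCIA complex, made of NDUFAF1, ECSIT, ACAD9, TMEM126B and partners, which builds the proximal arm. Of 6 such genes 4 fell and 2 did not pass, with a median log2 fold change of -0.49. FOXRED1, a flavoprotein needed for the membrane arm, had 12.4, 17.3 and 18.9 CPM in the 500IND libraries, against 31.4, 33.6 and 36.8 CPM in the Control libraries. The groups were well apart (log2 fold change -1.07 ± 0.15 SE, adjusted p by edgeR 3.14e-05). TMEM126B, ACAD9 and TIMMDC1, the last a membrane anchor of early intermediates, fell with log2 fold changes of -0.69, -0.53 and -0.46 and edgeR adjusted p of 3.19e-04, 6.05e-04 and 0.00206.

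Within the MCIA complex the mRNAs did not all move. NDUFAF1, an assembly factor of early membrane intermediates, had 11.6, 9.48 and 12.1 CPM in the 500IND libraries, against 9.79, 10.6 and 12.5 CPM in the Control libraries. The groups covered the same range (log2 fold change 0.01 ± 0.16 SE, adjusted p by edgeR 0.961), and the sign of this value turned under DESeq2 and other alternatives. ECSIT, an adaptor protein that also acts in innate immune signalling, had 12.4, 17.0 and 19.7 CPM in the 500IND libraries, against 19.3, 18.9 and 22.4 CPM in the Control libraries. The highest 500IND library lay inside the Control range, and the gene did not pass (log2 fold change -0.31 ± 0.16 SE, adjusted p by edgeR 0.114), though without 500IND replicate 3 the edgeR adjusted p was 0.021.

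The factors of the Q and N modules split most widely. Of 8 genes 4 fell, 3 rose and 1 did not pass. NUBPL, which delivers iron-sulfur clusters to complex I, was the lowest assembly factor and had 6.88, 5.56 and 6.06 CPM in the 500IND libraries, against 23.7, 23.5 and 21.5 CPM in the Control libraries. The 500IND libraries were all under 7 CPM and the Control libraries all over 21 CPM (log2 fold change -1.89 ± 0.14 SE, adjusted p by edgeR 6.82e-08). NDUFAF5, which hydroxylates an arginine of NDUFS7, averaged 9.69 ± 0.311 CPM in 500IND libraries and 22.4 ± 0.492 CPM in Control libraries (log2 fold change -1.21 ± 0.12 SE, adjusted p by edgeR 1.48e-06).

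The remaining decreases among these factors were small. NDUFAF4, which with NDUFAF3 guides the early Q module, and NDUFAF6, which acts in early assembly, fell with log2 fold changes of -0.45 and -0.43 and edgeR adjusted p of 0.0214 and 0.0163. Both lost the call with upper-quartile factors, at adjusted p of 0.073 and 0.068, and NDUFAF4 also without Control replicate 3 at 0.063 or without 500IND replicate 2 at 0.087. NDUFAF8, the partner of NDUFAF5, had 8.16, 8.43 and 8.99 CPM in the 500IND libraries, against 13.1, 8.60 and 10.9 CPM in the Control libraries. Its groups overlapped by 1 Control library (log2 fold change -0.35 ± 0.17 SE, adjusted p by edgeR 0.0947), and without that library, replicate 2, the edgeR adjusted p was 0.021.

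The 3 assembly factors that rose all act on the peripheral arm. NDUFAF7, a methyltransferase that modifies an arginine of a core subunit, had 28.7, 30.9 and 27.3 CPM in the 500IND libraries, against 14.3, 14.0 and 16.8 CPM in the Control libraries. Every 500IND library was over 27 CPM and every Control library under 17 CPM (log2 fold change 0.95 ± 0.12 SE, adjusted p by edgeR 1.62e-05). NDUFAF2, a chaperone of late assembly and a paralogue of NDUFA12, had 23.4, 21.4 and 22.4 CPM in the 500IND libraries, against 13.7, 13.6 and 12.5 CPM in the Control libraries, again with no overlap (log2 fold change 0.76 ± 0.12 SE, adjusted p by edgeR 9.78e-05). NDUFAF3, a partner of NDUFAF4 in Q module assembly, had 16.8, 21.8 and 22.5 CPM in the 500IND libraries, against 11.5, 12.9 and 12.2 CPM in the Control libraries. The 500IND libraries of this gene were all higher, with replicate 1 the least so (log2 fold change 0.74 ± 0.14 SE, adjusted p by edgeR 4.66e-04). In the same samples the partner NDUFAF4 fell by 0.45 and the paralogue NDUFA12 fell by 0.63 on the log2 scale.

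**Figure D2:**
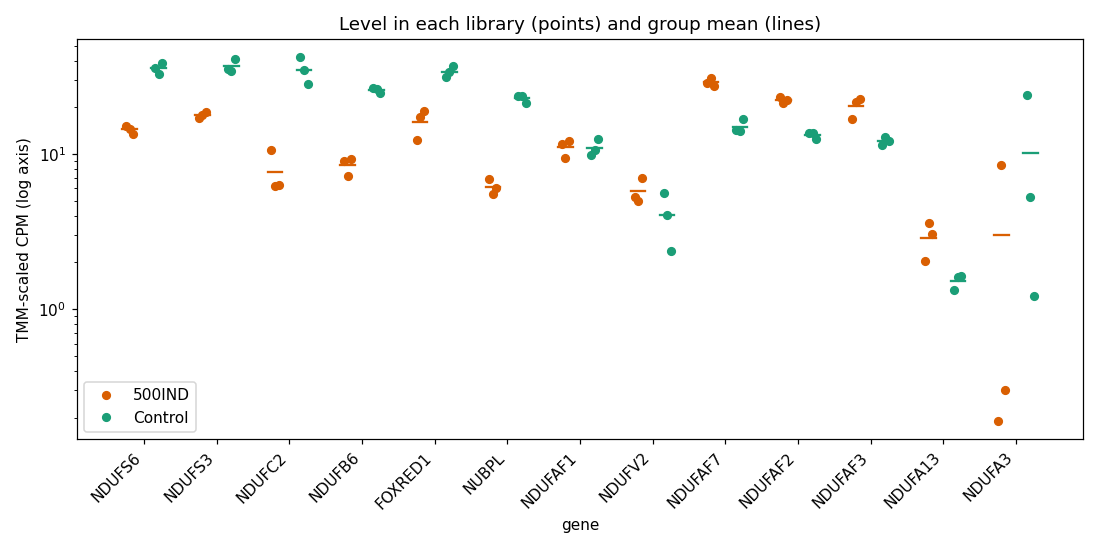
TMM-scaled CPM (y axis, log scale) of 13 complex I genes on the x axis, with 500IND libraries to the left of Control libraries; points are libraries and lines are group means. The first 6 genes separate with 500IND below, NDUFAF7, NDUFAF2, NDUFAF3 and NDUFA13 separate with 500IND above, and the points of NDUFA3 spread from 0.190 to 23.9 CPM.

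Levels were compared between genes only per kilobase of the main transcript. The median level of the 36 subunits was 18.6 CPM per kilobase in 500IND libraries and 35.1 in Control libraries, while that of the 14 assembly factors was 9.87 and 9.69. NDUFS5 had the highest level in both groups, at 72.9 ± 12.3 CPM per kilobase in 500IND libraries and 190 ± 16.9 in Control libraries. NDUFA1 followed at 58.0 ± 5.51 CPM per kilobase in 500IND libraries and 114 ± 7.82 in Control libraries, and NDUFB1 at 60.3 ± 0.963 CPM per kilobase in 500IND libraries and 109 ± 1.5 in Control libraries, which exchanged ranks 2 and 3 between groups within about 1 SD. The genes that rose changed places with subunits: NDUFAF2 stood at rank 12 of 50 in 500IND libraries and at rank 27 in Control libraries, and NDUFAF7 at rank 24 and at rank 42. NDUFC2 stood at rank 45 in 500IND libraries and at rank 34 in Control libraries.

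Some of the lowest levels belonged to genes whose transcripts lie under exons of other annotated genes. NDUFV2 had 771 of 930 bases of its main transcript (82.9%) under another gene of the same strand that itself had 0 counts in all libraries. For NDUFA7 this share was 452 of 601 bases (75.2%), also under a gene with 0 counts. NDUFB8 had 71.7%, NDUFA11 67.0% and NDUFA13 44.1% under other genes on the same strand. NDUFB8 and NDUFA11 were not among the lowest, at ranks 24 and 22 in Control libraries. NDUFC2 had 18.9% under other genes, most of it under the readthrough gene NDUFC2-KCTD14, which had 0 counts in each 500IND library and 2 in each Control library. How reads over shared bases were counted is not given in the sources used here. Its part in the levels of the 6 genes with overlap named here was not tested. Reads can also be split with near-identical copies, and 20 complex I genes have named pseudogenes, 61 in all, of which 33 had counts.

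The decreases were also present in genes with little overlap. Of 33 tested genes with under 10% of the main transcript under other genes and at most 5% of summed counts on copies, 27 fell, 2 rose and 4 did not pass, with a median log2 fold change of -0.80. Of the other 16 tested genes 11 fell, 2 rose and 3 did not pass, with a median of -0.73. NDUFAF2 and NDUFAF7 belonged to the first set, and NDUFA13 and NDUFAF3 to the other. NDUFAF3 had 22.6% of its main transcript under exons on the opposite strand. Both limits were set after the counts had been seen. Of the counts on NDUFV2 and its copy together, the copy took 16.7% in 500IND libraries and 29.3% in Control libraries. Of the counts on NDUFA3 and its copies, the copies took 82.6%, 13.6% and 80.8% in the 500IND libraries and 2.0%, 12.7% and 13.3% in the Control libraries. Pooled over libraries these shares were 27.0% in 500IND and 4.77% in Control, and they were 81.6% without 500IND replicate 2, 12.8% without Control replicate 1 and 2.65% without Control replicate 2.

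**Figure D3:**
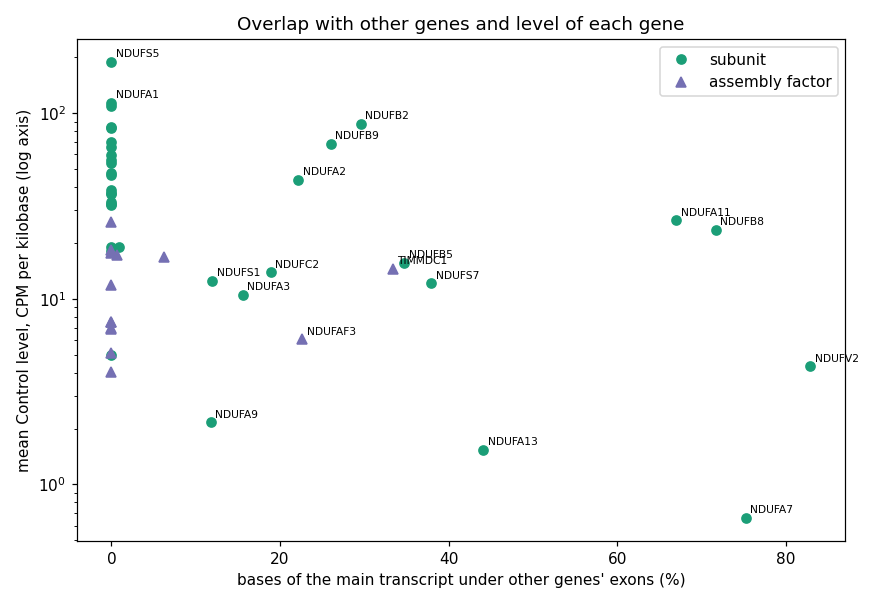
Share of the main transcript under exons of other genes (x axis, percent) against the mean Control level (y axis, CPM per kilobase, log scale) of the 50 complex I genes, with circles for subunits and triangles for assembly factors. NDUFA7 lies at 75.2% and 0.659 CPM per kilobase and NDUFV2 at 82.9% and 4.32, and NDUFS5 at 0% stands at 190. Other points go the other way, with NDUFA11 at 67.0% and 26.5 and NDUFAF5 at 0% and 4.06.

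Many complex I genes start close to a gene read in the other direction. There were 30 with a neighbour on the opposite strand that starts within 1000 bases, and in 24 pairs both genes were tested and the neighbour codes for a protein. The start here is the outermost annotated exon base of a gene, which for some genes lies far from the RefSeq start used for promoters below. For NDUFS3 the outermost base is chr11:47565336 and the RefSeq promoter is chr11:47578824-47579123. Of these 24 neighbours 9 fell, 8 rose and 7 did not pass, with a median log2 fold change of -0.08. These counts lay near the background of all genes tested, of which 31% fell and 30.6% rose. In the 16 pairs in which the complex I gene fell, the neighbour fell in 6, rose in 5 and did not pass in 5. The difference between the 2 genes of a pair was not tested.

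Single pairs went both ways. FOXRED1 fell by 1.07 on the log2 scale while SRPRA, the signal recognition particle receptor, rose with a log2 fold change of 1.02 (adjusted p by edgeR 3.91e-05). NDUFAF7 rose beside CEBPZ, a ribosome biogenesis factor, at -0.24 (adjusted p by edgeR 0.0487), and NDUFAF2 rose beside ERCC8, a DNA repair gene, at -0.64 (adjusted p by edgeR 0.00563). By contrast, NDUFS6 and NDUFB5 fell together with MRPL36 and MRPL47, genes of the mitochondrial ribosome, at -0.58 and -1.09. NDUFA13 rose together with TSSK6, a testis kinase, at 1.03 (adjusted p by edgeR 0.0178).

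**Figure D4:**
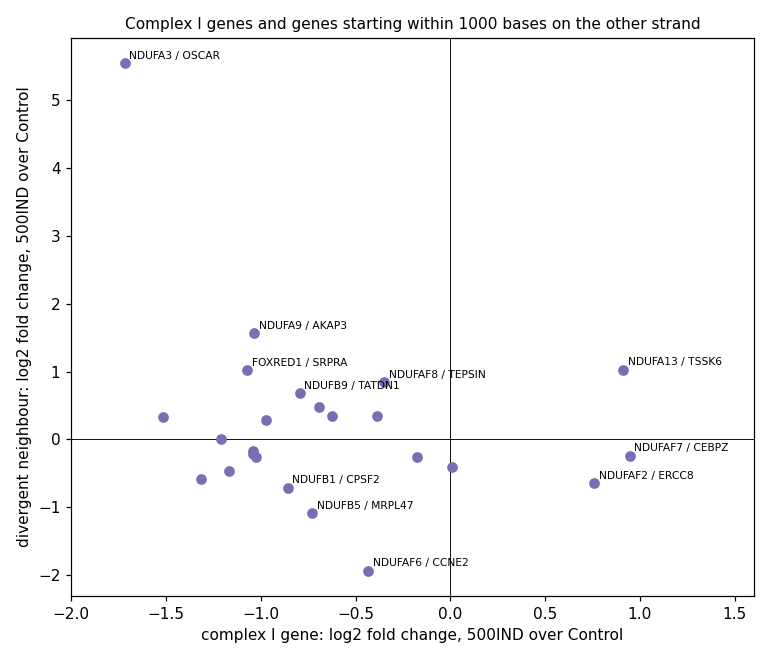
Log2 fold change (500IND over Control) of a complex I gene (x axis) and of the protein-coding neighbour that starts within 1000 bases on the opposite strand (y axis), 1 point for each of 24 pairs. Complex I genes to the left of 0 have neighbours on both sides of 0, and OSCAR, the neighbour of NDUFA3, stands apart at 5.54.

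Promoters of 44 of the 50 genes were matched by symbol in RefSeq on GRCh38.p14, each of 300 bases, from 250 before to 50 after the RefSeq gene start. For some genes this start is far from the outermost counted exon. The NDUFA5 promoter is chr7:123601602-123601901, while its counted exons reach 123557904. The NUBPL promoter is chr14:31561154-31561453, while its counted exons begin at 31489956. The motif shares below include such promoters. All 44 promoters were searched on both strands for short motifs. GCATGCGC, the core of the site of NRF1, a known regulator of respiratory chain genes, was found in 15.9% of complex I promoters, against 3.27% of all 27305 promoters and 5.35% of the 11111 promoters of genes tested. The 7 genes that held it, NDUFS6, NDUFAF5, NDUFA6, NDUFB4, NDUFA8, NDUFS7 and NDUFAF4, were among the 32 with a promoter that fell, and 0 of the 4 that rose held it. AAGATGGC, the core of the YY1 site, was in 13.6%, against 5.28% of promoters of genes tested, and CCGGAAG, an ETS family site, in 15.9%, against 18.8%. TGACGTCA, the cyclic AMP response element, was in 9.09%, against 3.22%, and TGATGNAA, the site of the stress factor ATF4, in 2.27%, against 1.82%. AAGATGGC, TGACGTCA and TGATGNAA were also in 0 of the 4 promoters of genes that rose, and CCGGAAG was in 1. No difference between promoters of genes that fell and rose was tested, and 4 promoters are too few to show one. A match is a description of the letters and was not linked to binding here.

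GGGCGG, bound by SP1, was in 59.1% of complex I promoters, against 67.9% of promoters of genes tested. CCAAT was in 31.8%, against 36.8%, TATAAA in 9.09%, against 6.47%, and TGACNNNGC, the antioxidant response element, in 18.2%, against 15%. TGACNNNGC was in 2 of the 4 promoters of genes that rose and in 5 of the 32 of genes that fell.

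The promoters of 3 genes that fell, chosen because they hold GCATGCGC, and of 3 genes that rose are printed to show where the letters lie. Of the 32 promoters of genes that fell 7 held GCATGCGC, and no difference from the 4 promoters of genes that rose was tested. The first 3 are NDUFS6 at chr5:1801157-1801456 on the plus strand, NDUFAF5 at chr20:13784778-13785077 on the plus strand and NDUFA6 at chr22:42090723-42091022 on the minus strand. The printed genes that rose are NDUFAF7 at chr2:37231408-37231707 on the plus strand, NDUFAF2 at chr5:60944955-60945254 on the plus strand and NDUFA13 at chr19:19515975-19516274 on the plus strand. All are GRCh38.p14 sequences from RefSeq, written 5′ to 3′ in the direction of the gene, and capitals mark the letters of GCATGCGC, AAGATGGC or CCGGAAG on either strand.
NDUFS6: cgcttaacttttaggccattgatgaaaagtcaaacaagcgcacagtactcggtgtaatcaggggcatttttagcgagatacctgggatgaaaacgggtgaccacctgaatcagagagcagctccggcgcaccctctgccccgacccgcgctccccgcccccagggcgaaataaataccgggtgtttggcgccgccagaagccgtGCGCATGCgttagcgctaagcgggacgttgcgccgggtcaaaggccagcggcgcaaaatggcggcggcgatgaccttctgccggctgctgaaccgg
NDUFAF5: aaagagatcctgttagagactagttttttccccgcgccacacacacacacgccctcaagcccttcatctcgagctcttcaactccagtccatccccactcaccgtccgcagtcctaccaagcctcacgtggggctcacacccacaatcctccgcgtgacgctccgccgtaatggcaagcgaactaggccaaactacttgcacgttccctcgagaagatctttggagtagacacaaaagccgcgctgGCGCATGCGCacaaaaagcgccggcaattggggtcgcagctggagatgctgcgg
NDUFA6: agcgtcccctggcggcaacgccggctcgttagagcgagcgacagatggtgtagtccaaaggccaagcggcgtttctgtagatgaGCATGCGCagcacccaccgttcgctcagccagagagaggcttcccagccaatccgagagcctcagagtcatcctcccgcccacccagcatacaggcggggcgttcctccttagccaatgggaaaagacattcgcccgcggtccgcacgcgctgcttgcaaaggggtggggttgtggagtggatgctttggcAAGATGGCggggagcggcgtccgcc
NDUFAF7: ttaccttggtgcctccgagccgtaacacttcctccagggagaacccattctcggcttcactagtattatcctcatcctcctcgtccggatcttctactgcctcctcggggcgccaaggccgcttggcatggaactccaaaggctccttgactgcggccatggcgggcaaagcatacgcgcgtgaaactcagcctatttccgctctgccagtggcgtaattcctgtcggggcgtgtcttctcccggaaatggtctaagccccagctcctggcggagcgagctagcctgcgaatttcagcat
NDUFAF2: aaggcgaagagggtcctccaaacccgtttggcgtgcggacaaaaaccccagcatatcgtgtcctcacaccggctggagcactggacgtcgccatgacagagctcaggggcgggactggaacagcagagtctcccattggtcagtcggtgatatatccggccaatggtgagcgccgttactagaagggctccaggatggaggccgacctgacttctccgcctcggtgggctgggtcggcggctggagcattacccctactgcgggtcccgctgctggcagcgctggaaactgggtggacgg
NDUFA13: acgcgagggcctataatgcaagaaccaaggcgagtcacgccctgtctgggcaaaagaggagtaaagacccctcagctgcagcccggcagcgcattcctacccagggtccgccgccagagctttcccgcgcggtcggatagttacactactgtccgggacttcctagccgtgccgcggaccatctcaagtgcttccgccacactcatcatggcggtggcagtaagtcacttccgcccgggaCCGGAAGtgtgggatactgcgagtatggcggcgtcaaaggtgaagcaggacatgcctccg
In NDUFAF5 the matches on the 2 strands overlap and begin 4 and 2 bases before the start, in NDUFS6 the match begins 46 bases and in NDUFA6 166 bases before it. NDUFAF7 and NDUFAF2 have no capitals, and NDUFA13 has an ETS match that begins 10 bases before the start. The promoter of NDUFAF3, which also rose, is not printed and holds none of the marked motifs.

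The rest of the pathway was read from the same fit. Of the 7 complex I subunits encoded by mitochondrial DNA 6 fell and 1 did not pass, with a median log2 fold change of -1.27. MT-ND3 averaged 2.39 ± 1.41 CPM in 500IND libraries and 60.7 ± 2.99 CPM in Control libraries (log2 fold change -4.71, edgeR adjusted p 3.05e-09), and MT-ND1, MT-ND2 and MT-ND5 had log2 fold changes of -2.01, -1.27 and -1.27. The 500IND libraries varied more than the Control libraries for MT-ND1, which averaged 42.2 ± 16.4 CPM in 500IND libraries and 170 ± 7.22 CPM in Control libraries. Of 13 other genes of complex I assembly 9 fell and 4 did not pass, with a median of -0.58. They were led by RTN4IP1, a mitochondrial reductase, at -2.27, and by AIFM1, a flavoprotein of protein import, at -1.20, with TMEM70 and DMAC1, factors of the membrane arm, at -0.95 and -0.82.

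Genes that make the cofactors of complex I were mixed. Of 14 genes of iron-sulfur cluster assembly FDX2 had at most 6 counts and was not tested, and of the other 13 genes 7 fell, 2 rose and 4 did not pass, with a median log2 fold change of -0.59. The cysteine desulfurase NFS1 fell with a log2 fold change of -1.47, whereas the scaffold ISCU and the chaperone HSPA9 rose with 1.08 and 0.95, all with edgeR adjusted p of 1.94e-05 or less. ISCU averaged 84.7 ± 2.82 CPM in 500IND libraries and 39.9 ± 1.03 CPM in Control libraries. Of 13 genes of coenzyme Q synthesis 9 fell, 1 rose and 3 did not pass, with a median of -0.54. COQ3, a methyltransferase, changed by -2.63, PDSS1, which makes the side chain, by -2.07, and COQ9 by -0.81, while COQ10B, a coenzyme Q binding protein, averaged 42.1 ± 0.629 CPM in 500IND libraries and 16.2 ± 1.08 CPM in Control libraries and rose with a log2 fold change of 1.38.

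Genes that supply NADH or bring electrons to coenzyme Q by other routes fell in 12 of 17 cases and rose in 1, with a median log2 fold change of -1.02. The cytosolic malate dehydrogenase MDH1, the electron transfer flavoprotein subunit ETFB, the transhydrogenase NNT and the mitochondrial transaminase GOT2 fell with log2 fold changes of -1.36, -2.04, -1.28 and -1.14. GOT1, the cytosolic transaminase of the same shuttle as GOT2, averaged 158 ± 35.3 CPM in 500IND libraries and 59.7 ± 1.73 CPM in Control libraries and rose with a log2 fold change of 1.40 (adjusted p by edgeR 1.14e-06). Of 41 nuclear subunits of complexes II to V 39 fell, 0 rose and 2 did not pass, with a median of -0.93, against -0.86 for the complex I subunits. Subunits of ATP synthase had the smallest adjusted p there, with ATP5MC1 at -2.49, ATP5MF at -1.81, ATP5F1A at -1.52 and ATP5PB at -1.37.

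**Figure D5:**
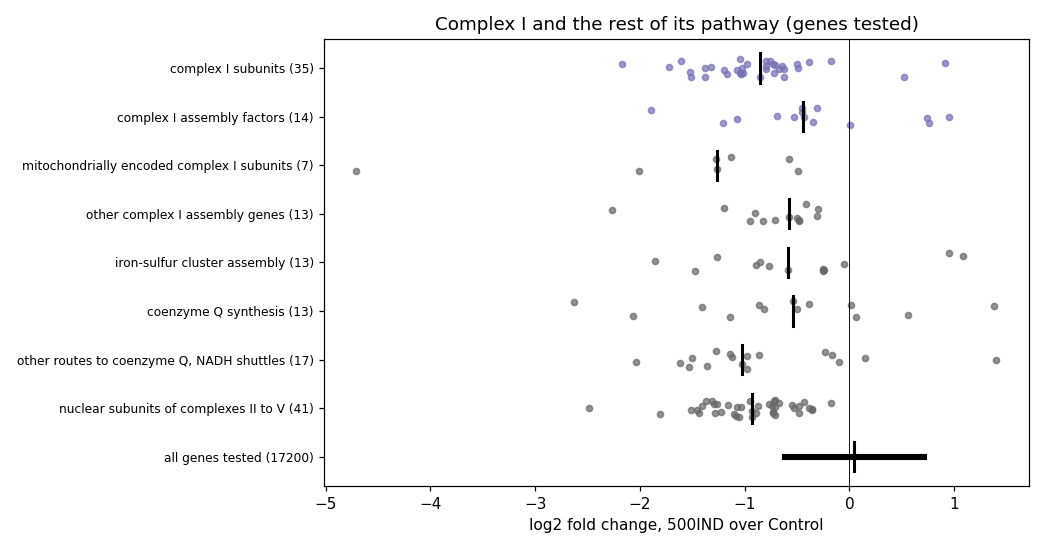
Log2 fold change (500IND over Control, x axis) of the tested genes of each list on the y axis, 1 point for each gene, with vertical bars at the medians. The bottom line spans the interquartile range of all 17200 genes tested, and the medians of the complex I subunits and of complexes II to V, -0.86 and -0.93, lie to its left.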

How the data were processed

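For each library the authors deposited 1 table of raw counts per gene with exon coordinates, per the file headers. The labels name a stranded total RNA kit with depletion of ribosomal RNA. FastQC 0.11.7, cutadapt 1.16, HISAT2 2.1.0, featureCounts and DESeq2 with build hg38 are named per the submitters' processing notes; strand and multi-mapping settings are not given in the sources used here. Of 60607 lines per table, 3 broken lines of 1 gene were left out. No 2 libraries of a group were alike (chi-square per degree of freedom 6.99 to 21.9).

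The edgeR quasi-likelihood test (edgeR 4.0.16, R 4.3.3) was run after filterByExpr, which left 17200 genes, and TMM scaling, with a model of group alone, Benjamini-Hochberg adjustment over all genes and a threshold of 0.05. SEs are those the test implies. The test was also run on simulated counts with 200 changed genes and a dispersion of 0.02. In the data 5327 genes fell and 5264 rose, so the simulation cannot show how the test behaves with so many changes. Levels per kilobase used the main transcript of GENCODE 29, in place of the full exon length first planned. Other-gene overlap came from the exon coordinates of the tables, and a named copy is a row whose symbol is that of a pseudogene. Alternatives were limma-voom (limma 3.58.1), DESeq2 1.42.0, RLE and upper-quartile factors, an offset for gene length, a filter of 1 CPM in 3 libraries or none, library sizes that leave out mitochondrial and small structured RNAs, a replicate block, a fold threshold of 1.5 with glmTreat and each library left out. The counts without genes of much overlap or many copies, and without NDUFA3, were added after seeing the data. The members and lists were chosen with earlier results of these data known. Values per library are given for the highest and lowest gene of each module and for each gene that rose, did not pass or was filtered out, and other lists by up to 4 genes with the smallest adjusted p and those against their list's direction. One gene that this rule names is not reported here. Counting limits cover counting error only.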

Additional observations from a re-analysis of the deposited data

Results flagged for a closer look

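Counts on named pseudogene copies lay outside the comparisons above. In 4 of the 20 genes with named copies, the summed copies had more CPM in every 500IND library than in any Control library. These 4 had at least 10 counts on copies over the 500IND libraries. The copy of NDUFS6 did so too, below that minimum, with 1, 3 and 1 counts in 500IND libraries, against 0 counts in each Control library. Copies of other genes went the other way, with fewer CPM in every 500IND library than in any Control library. For NDUFV2 these were 19, 22 and 25 counts in 500IND libraries, against 38, 37 and 33 in Control libraries. For NDUFB8 they were 3, 4 and 2 counts in 500IND libraries, against 7, 6 and 9 in Control libraries. How often pseudogenes outside complex I separated either way was not counted. Of all genes tested, 33.3% had every 500IND library below every Control library. The share with every 500IND library above was not counted, so whether the copies differ from the background is not known. The copies of NDUFA3 had 0.901, 1.34 and 1.26 CPM in 500IND libraries, a mean of 1.17, against 0.489, 0.766 and 0.187 CPM in Control libraries. The copies of NDUFAF4 had 0.854, 0.397 and 0.659 CPM, a mean of 0.637, in 500IND libraries, against 0.196, 0.213 and 0.0936 CPM in Control libraries. The copies of NDUFAB1 averaged 0.342 CPM in 500IND libraries from 8, 7 and 5 counts, against 1, 4 and 3 counts in Control libraries. The copies of NDUFB5 averaged 0.171 CPM in 500IND libraries from 2, 6 and 2 counts, against 0 counts in each Control library. In Control libraries 3 counts would be 0.129 to 0.143 CPM before TMM scaling. Whether reads of these copies belong to the genes themselves was not tested.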

How the results depend on the processing

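The count of complex I genes that fell was 36 to 42 under every alternative run except a fold threshold of 1.5, which left 22 lower and 1 higher (NDUFAF7), and the count without genes of much overlap or many copies, which held 27 lower and 2 higher. Over all genes that threshold left 3026 lower and 2968 higher. Leaving out each library gave 38 to 39 lower and 3 to 4 higher, and a median log2 fold change of -0.84 to -0.75. The median was -0.64 with upper-quartile factors and -0.88 with no filter. Upper-quartile factors moved the median of all genes to 0.16 and the split to 4686 lower and 6124 higher, and relative to all genes the complex I median was then -0.80. The labels' replicate numbers did not pair the samples (correlation of deviations 0.029, 0.0085 and 0.24). The first 500IND library correlated best with Control replicate 2, the second and the third with Control replicate 3. With the replicate block 39 genes fell and 4 rose, with a median of -0.76, and NDUFA11 passed. The sign of NDUFAF1 turned with DESeq2 (-0.0012), RLE factors (-0.0013) and no filter (-0.098), and ranged from -0.12 to 0.11 with 1 library left out. NDUFV2 passed as higher (0.78) without Control replicate 1. NDUFA11, ECSIT, NDUFAF8 and NDUFA3 passed as lower with no filter, and each with at least 1 library left out. The causes were not tested. Depth limits mainly NDUFA7 and NDUFA13, with under 100 counts in each library.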
